A study of Drosophila melanogaster with 12 samples.

Results

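CG4757, CG14275, CG17325, CG33093 and net are 5 genes of Drosophila melanogaster whose RNA was higher in heads of flies expressing mutant human tau than in heads of driver-only flies. They were picked from the 13515 genes of the deposited table because all or nearly all tau libraries lay above the control libraries, so that difference chose them and carries no test here. Tau flies (Elav-Gal4/+;UAS-tauR406W/+) carried the pan-neuronal Gal4 driver together with a transgene for human tau with the R406W change of inherited frontotemporal dementia. Control flies (Elav-Gal4/+) carried the same driver without the transgene. There were 6 libraries of each genotype, lettered A to F, each from RNA of 18 pooled male and female heads taken on day 10 of adulthood, and ribosomal RNA was depleted. The driver is active in neurons, but the RNA came from whole heads, which also hold glia, eye, fat body, muscle and haemocytes. In such samples, a change in the number of cells of a type cannot be told apart from a change in RNA per cell.

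All but net are known mainly by their annotation number. net encodes a basic helix-loop-helix transcription factor that works in the developing wing. There it keeps the cells between the veins from becoming vein by repressing rho, which encodes a protease that releases ligands of the epidermal growth factor receptor. CG14275 is listed with the Ly6 (three-finger) proteins, small proteins that are often held on the outer cell surface by a lipid anchor. Members of that family in flies take part in cell junctions and in sleep, where quiver acts on a potassium channel. CG4757 is listed with the carboxylesterases, a family that holds detoxifying ester-splitting enzymes and acetylcholinesterase as well as relatives without enzyme activity that act in cell adhesion. No role is given here for CG17325 and CG33093.

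The values are normalised counts, 1 per gene and library, made by the authors. Their totals ran from 24.65 to 26.68 M in tau libraries and from 25.92 to 30.24 M in control libraries. The value of 1 read pair, read from the lowest values of each library, lay between 0.642 and 0.963 in tau and between 0.842 and 1.54 in control libraries. Several libraries stood apart. Signal over genes that are silent in most libraries was 24.6 read pairs per kb in tau B, where the remaining 5 tau libraries had 1.38 to 2.71. It was 8.86 in control E and 6.30 in control F, where the remaining 4 controls had 0.965 to 2.33. In control C, short genes lay a median of 0.30 above and long genes 0.21 below their mean over all 12 libraries on the log2 scale. The yolk proteins Yp1, Yp2 and Yp3, made in the fat body of females, summed to 0.270 to 1.08 M in tau libraries (median 0.601 M) and to 0.456 to 1.96 M in control libraries (median 1.31 M). Results with their level as a covariate are given below, and the cause of this spread was not tested. The tissue label held: the neuronal gene elav lay between 11052 and 13330 in tau and between 7537 and 13095 in control libraries. Of the neuronal markers, elav differed by 0.12 and brp by 0.10 on the log2 scale, and nSyb by -0.24. Markers of glia (repo at 0.03 and moody at -0.13) and photoreceptors (ninaE at -0.21 and trp at -0.08) were also present in every library. None of these markers was called different.

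Among the 10845 genes with a mean of at least 10, limma's test on log2(value + 1) called 567 different at an adjusted p under 0.05, which is 5.23%. Of all tested genes 2.1% (228) were called higher and 3.13% (339) lower in tau. With every library rescaled to the same total the median of all tested genes moved by 0.10 on the log2 scale, and 525 were called higher and 261 lower. With the yolk protein level as a covariate 146 genes were called, 54 higher and 92 lower. In 171 genes, 1.58% of those tested, every tau library lay above every control library, and all 5 genes were among them. In either direction, 3.37% of tested genes had no overlap. Since the genes were picked for that, nothing is read from the count. By log2 difference CG33093 ranked 7, CG4757 8, CG14275 11, CG17325 12 and net 13 within the 171.

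CG4757 (FBgn0027584) lies on chromosome arm 3R at 11161207 to 11163498 on the plus strand of BDGP6, the assembly with the coordinates of dm6. It has 2 annotated transcripts with up to 4 exons and codes for 550 amino acids. In tau libraries it had 1210 at the lowest, a median of 2727 and 3199 at the highest, against 462, 607 and 917 in control libraries. The tau libraries fell into a high set (A, D, E and F, from 2709 to 3199) and a low pair (B with 1210 and C with 1472), and even the low pair lay above control E, the highest control. The mean was 2357 ± 810 in tau and 619 ± 165 in control (SD, n = 6 each). The log2 difference was 1.88 (SE 0.23), or 3.67-fold.

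CG14275 (FBgn0032022) lies on 2L at 8327456 to 8332911 on the plus strand, with 2 transcripts, up to 3 exons and 148 codons. It had 1226, a median of 1981 and 2468 in tau libraries, against 405, 541 and 799 in control libraries. The groups were separated by a wide gap, with the lowest tau library 1.53 times the highest control. Within tau, A (1265) and B (1226) were low and the other 4 libraries lay between 1799 and 2468. The mean was 1847 ± 512 in tau and 593 ± 156 in control, a log2 difference of 1.63 (SE 0.20), or 3.09-fold. Its relative spread, the SD as a percent of the mean, was 27.7% in tau and 26.3% in control.

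CG17325 (FBgn0040993) lies on 2L at 18812648 to 18813941 on the plus strand and codes for 77 amino acids. It had 4474, a median of 6873 and 13944 in tau libraries, against 1826, 2821 and 3750 in control libraries. Here A (13944) and B (13822), the low tau libraries of CG14275, were the high ones, at well above tau D, the next with 7838. The lowest tau library was 1.19 times the highest control. The mean was 8632 ± 4207 in tau and 2692 ± 701 in control, a log2 difference of 1.58 (SE 0.26), or 3.0-fold. Without tau A the difference was 1.42, and without tau B it was also 1.42.

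The annotation places another gene, CG42305, on exactly the same stretch. All 3 transcripts of CG17325 have the same exons as those of CG42305. The 48 codons of CG42305 lie between 18813100 and 18813397, upstream of the reading frame of CG17325 at 18813461 to 18813691. One RNA thus holds both reading frames, and the values given for CG17325 cannot be assigned to either of them.

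CG33093 (FBgn0053093) lies on 3R at 22530694 to 22531922 on the minus strand, with 1 transcript, 4 exons and 322 codons. It was the lowest of the 5. It had 43.5, a median of 103 and 142 in tau libraries, against 8.98, 22.9 and 30.9 in control libraries. These values stand for about 67.8 to 151 read pairs in tau and 6.87 to 36.6 in control, so counting error is a larger part of its spread than for the others. Tau A (43.5) was the lowest of its group and C and D were the highest (139 and 142), all of them above control F, the highest control with 30.9. The mean was 101 ± 39.2 in tau and 20.9 ± 9.36 in control. Its log2 difference of 2.24 (SE 0.40), or 4.72-fold, was the largest point estimate of the 5.

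net (FBgn0002931) lies near the end of 2L at 82421 to 87387 on the minus strand, with 2 transcripts, up to 2 exons and 360 codons. It had 233, a median of 302 and 444 in tau libraries, against 30.3, 101 and 230 in control libraries. Of the 5 genes it came closest to overlap, since tau E (233) and control E (230) differed by a factor of 1.01. Control C was low (30.3), A, B and D lay between 92.1 and 103, and F had 182. The mean was 317 ± 71.1 in tau and 123 ± 71.3 in control, a log2 difference of 1.58 (SE 0.36), or 2.99-fold. In relative terms the spread was 22.4% in tau and 58.0% in control. Without control C the log2 difference was 1.23, and without control E it was 1.81.

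**Figure D1:**
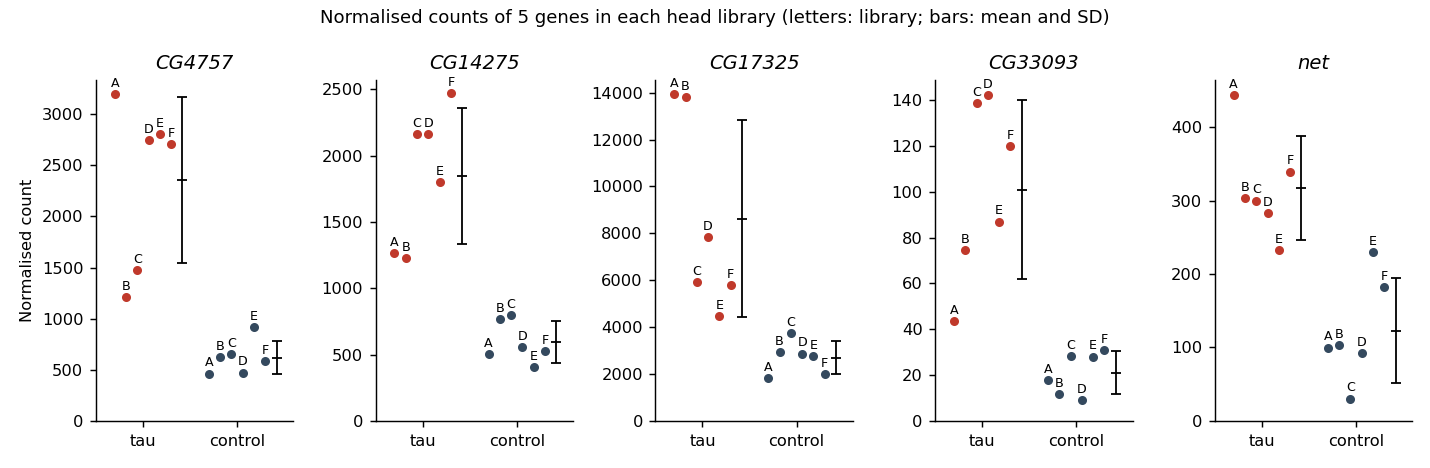
Normalised count (vertical axis, linear, from 0) of each gene in the 6 tau and 6 control libraries. Points are libraries with their letters, and the black bar beside each group is its mean with the SD. Every tau point lies above every control point, closest for net (tau E 233, control E 230), and CG17325 has tau A and tau B far above the other 4 tau libraries.

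With the 3 libraries with much silent-gene signal left out (tau B, control E and control F), the log2 differences were 2.19 for CG4757, 1.57 for CG14275, 1.34 for CG17325, 2.6 for CG33093 and 2.08 for net. With the yolk protein level as a covariate they were 1.76, 1.75, 1.78, 2.19 and 1.28 in the same order of genes. Over all alternatives and left-out libraries, 114 of 114 such values were above 0, a sign that the choice of the genes largely fixes. The tau library also lay above the control library of the same letter in 6 of 6 letters for each gene. The choice of the genes fixes that count, and the letters were not taken to pair libraries.

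Set per kb of exon, which allows genes to be compared, the order was the same in both genotypes. CG17325 was first, at 7572 ± 3690 per kb in tau and 2361 ± 615 per kb in control. CG14275 followed, at 1893 ± 525 per kb in tau and 608 ± 160 in control. CG4757 was at 1123 ± 386 per kb in tau and 295 ± 78.9 in control. These neighbours in the order overlapped: CG14275 ran from 1256 to 2529 per kb and CG4757 from 577 to 1525 in tau libraries. net, at 142 ± 32.0 per kb in tau and 55.2 ± 32.0 in control, overlapped with CG33093, at 95.7 ± 37.1 in tau and 19.8 ± 8.87 in control. Among the 10769 tested genes with an annotated length, CG17325 stood at percentile 97.9 of the levels per kb in tau and 93.0 in control. CG14275 stood at percentile 92.0 in tau and 72.7 in control. CG4757 stood at percentile 86.1 in tau and 52.1 in control. Lower down, net stood at percentile 35.0 in tau and 22.4 in control, and CG33093 at percentile 28.2 in tau and 14.0 in control. CG17325 was thus among the abundant RNAs of the head in either genotype, and CG33093 and net lay in the lower part of the tested genes in both.

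The design allows a test that the choice of the genes did not use, which is whether they rise and fall together among libraries of 1 genotype. None of the 20 relations, 10 pairs in each of 2 genotypes, passed the Benjamini-Hochberg adjustment of exact two-sided permutation tests over the 720 pairings of 6 libraries (smallest adjusted p 0.403). At the unadjusted level 2 were under 0.05. In tau libraries CG14275 and CG33093 had a Pearson's r of 0.87 and a Spearman's rho of 0.71 (exact p 0.0222 and 0.136, adjusted p 0.403 and 0.849, n = 6). Without tau A and tau B, the libraries farthest from the median of CG14275, r was 0.67. In control libraries CG14275 and net had an r of -0.79 and a rho of -0.71 (exact p 0.0403 and 0.136, adjusted p 0.403 and 0.849, n = 6), and r was -0.76 without the 2 farthest libraries.

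CG14275 and CG17325 stood opposite to each other in tau A and tau B, and there their r was -0.80 and their rho -0.60 (exact p 0.0750 and 0.242, adjusted p 0.50 and 0.849, n = 6). Without tau A and tau B r was 0.54, so the relation rests on those libraries. In control libraries the same pair had an r of 0.57 and a rho of 0.83 (exact p 0.200 and 0.0583, adjusted p 0.590 and 0.849), and r was -0.26 without the 2 farthest libraries. Of the 10 pairs, 4 had a positive r in tau and 5 in control, and 3 had the same sign in both genotypes. The 5 genes were thus not seen to vary as 1 group, but with 6 libraries a strong relation can be missed too. Even the r of 0.87 of CG14275 and CG33093 in tau had an adjusted p of 0.403 in the exact permutation test.

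**Figure D2:**
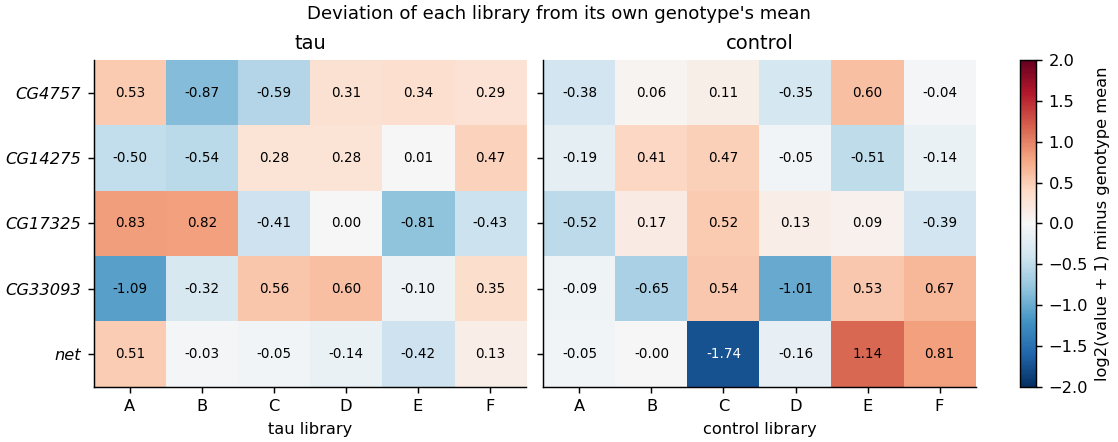
Deviation of each library from the mean of its own genotype on the log2(value + 1) scale, with genes as rows and libraries A to F as columns, tau on the left and control on the right. Red is above and blue below the mean. Control A lies below the control mean for all 5 genes, each of the other 11 libraries lies above its mean for some and below it for others, and tau A and tau B are high for CG17325 and low for CG14275 (1265 and 1226).

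A second family of 20 relations set each gene against the yolk proteins and against the silent-gene signal. None passed the adjustment (smallest adjusted p 0.0833). In tau libraries net followed the yolk proteins with an r of 0.94 and a rho of 0.94 (exact p 0.00833 and 0.0167, adjusted p 0.0833 and 0.333, n = 6), and r was 0.79 without the 2 farthest libraries. In control libraries that r was -0.63 and the rho -0.60 (exact p 0.178 and 0.242, adjusted p 0.458 and 0.690), and r was 0.33 without the 2 farthest libraries. CG14275 had an r of -0.74 and a rho of -0.83 with the silent-gene signal in tau (exact p 0.00833 and 0.0583, adjusted p 0.0833 and 0.514, n = 6), and r was -0.72 without the 2 farthest libraries. With the yolk protein level as a covariate, the log2 difference of net was 1.28 instead of 1.58. Without tau B, control E and control F, that of CG14275 was 1.57 instead of 1.63. Whether yolk proteins or silent-gene signal cause any of the difference between genotypes was not tested.

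As a description, each gene was also set against the 9016 genes with a mean of at least 50, and likeness was taken as the lower of the 2 within-genotype r values, each over 6 libraries of shared depth and makeup. CG4757 was most like ave, Vps52 and TrpRS (lower r 0.86, 0.84 and 0.83). CG14275 was most like CG9444 (0.94), CG2059 and CG42837 (both 0.85). For CG17325 the nearest were mRpS14, CG8854 (both 0.89) and CG43693 (0.88), and for CG33093 they were OstDelta (0.90), EMRE (0.89) and Tmtc3 (0.88). net was most like CG11044 (0.89), sals (0.87) and Taf13 (0.84). Among so many genes some reach such values with 6 libraries by sampling alone, and none of these 15 genes was called different between the genotypes. The share of tested genes with an r of at least 0.8 in size had a median over tested genes of 6.61% in tau and 9.16% in control. It was 5.62% in tau and 3.88% in control for CG4757, 9.04% in tau and 6.44% in control for CG14275, and 8.16% in tau and 5.07% in control for CG17325. It was 9.73% in tau and 3.96% in control for CG33093, and 5.69% in tau and 15.0% in control for net. The share was thus higher in tau than in control for CG4757, CG14275, CG17325 and CG33093, and lower for net. These differences were not tested, and the share that sampling alone gives with 6 libraries was not worked out. In control libraries net had control C at -1.74 and control E at 1.14 from its control mean on the log2 scale.

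The nearest tested genes on the chromosome, 2 on each side of each gene, were compared next. Of these 20 neighbours 1 was called, and it was lower in tau, which is a share of 5.0% against 5.23% of all tested genes. Their median log2 difference was 0.05, against 0.01 over all tested genes. The called gene was AdipoR, which encodes the fly relative of the adiponectin receptors and lies 2 genes from CG33093. It had 15600 ± 1265 in tau and 22272 ± 5865 in control (SD, n = 6 each), a log2 difference of -0.48 (SE 0.13, limma adjusted p 0.0491). The call was lost without 10 of the 12 libraries taken singly (adjusted p 0.0642 to 0.109) and in 6 other settings (0.0501 to 0.458).

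CG33093 has close neighbours on its own strand. CG33099, 121 bases away, differed by -0.04, and CG5326, an elongase of long fatty acids 251 bases away on the other side, by 0.33 (limma adjusted p 0.0868). CG5346, the second gene on the side of CG33099, differed by 0.54 (adjusted p 0.0625). None of these was called in the main setting. CG5346 was called higher without tau B or control C, after recentring on the median and with the replicate block. CG5346 and CG5326 were both called higher after rescaling to the same total and with array weights. Their differences were far smaller in size than the 2.24 of CG33093.

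CG4757 lies among genes for UDP-glycosyltransferases, enzymes that attach sugars to small molecules. Of these, Ugt302E1 differed by -1.42 (limma adjusted p 0.372), Ugt302C1 by 0.04, Ugt35E1 by -0.59 and Ugt35E2 by -0.03, and none was called. The largest of these differences was in a gene of low values, with 26.1 ± 21.5 in tau and 41.9 ± 11.03 in control for Ugt302E1. With 5 tested genes on each side, 4 of 50 were called, where 5.23% of all tested genes were. Ugt35B1 near CG4757 was 1 of the 4, with a log2 difference of -1.0 (limma adjusted p 0.00614). The others were AdipoR, Cda5 at 0.61 (adjusted p 0.0341) and Sam-S, S-adenosylmethionine synthetase, at 0.33 (adjusted p 0.0108).

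CG17325 lies beside CG10570, which was abundant in both genotypes (25654 ± 3546 in tau and 22129 ± 3930 in control) and differed by 0.22 on the log2 scale without being called. On the same side, ham, which encodes a zinc finger transcription factor, differed by -0.54 (limma adjusted p 0.0553). It was called lower without tau B, tau D or control F, at a mean of at least 100 and with array weights. Ugt36F1 and Ugt36D1 on the other side differed by -0.20 and -0.01. Beside net, galectin differed by 0.21, CG11374 by 0.40, Zir by 0.08 and Creld by 0.19. None of them was called in the main setting, and galectin was called higher with array weights.

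**Figure D3:**
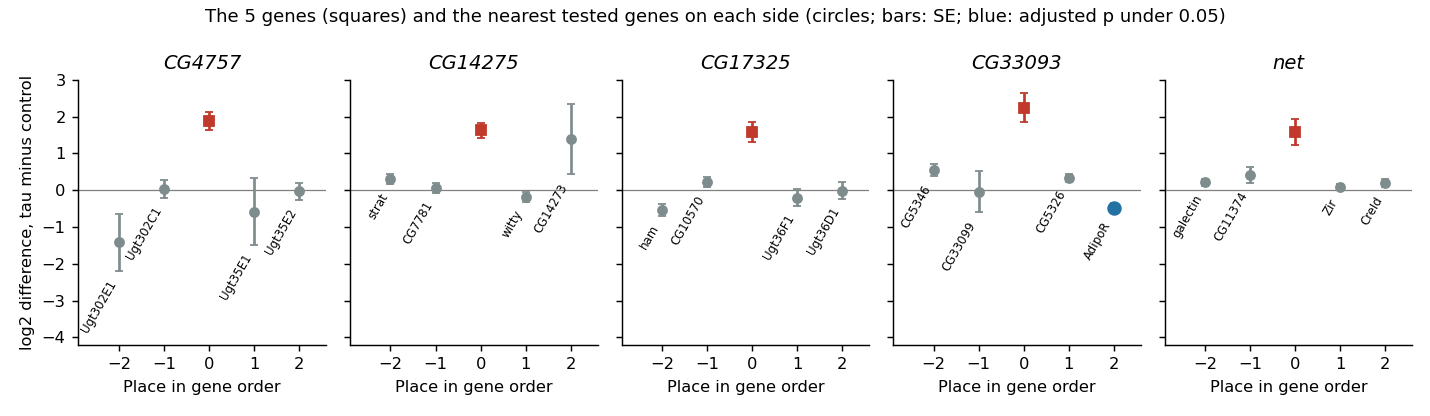
log2 difference, tau minus control (vertical axis), of each gene (square at place 0) and of the 2 nearest tested genes on each side in gene order (circles at places -2 to 2), with bars for the SE. The squares lie between 1.58 and 2.24, and of the 20 circles 1 (blue, AdipoR, -0.48) was called at an adjusted p under 0.05.

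CG14275 sits in a run of Ly6 genes on 2L. CG7781 and witty on either side differed by 0.06 and -0.18, strat, which is not listed with the family, by 0.30, and CG14273 by 1.39 (SE 0.96, limma adjusted p 0.50) at low values of 16.9 ± 16.7 in tau and 7.56 ± 7.36 in control. In all, 31 genes other than CG14275 were listed by hand with the Ly6 family, among them CG7781, witty and CG14273, and 26 were tested. None was called by limma, and 2 had an unadjusted p under 0.05. Their median log2 difference was 0.0035, against 0.01 over all tested genes, and 13 of the 26 were above 0.

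The 2 with the smallest p were atilla, a surface protein of the lamellocyte class of blood cells, and CG31675. atilla had 1655 ± 267 in tau and 2072 ± 201 in control, a log2 difference of -0.33 (SE 0.11, limma adjusted p 0.0919), and it was called without tau C (adjusted p 0.0431). Without control C, bou and cold, both needed for septate junctions, were called higher. CG31675 had 185 ± 25.7 in tau and 131 ± 40.4 in control, with 0.54 (SE 0.20, adjusted p 0.156). qvr, the sleep regulator quiver, differed by 0.02. Of the 3 haemocyte markers, eater was called lower in tau at -1.41 (limma adjusted p 0.000495), while NimC1 at -0.67 and Hml at -0.19 were not called, and their part in the value of atilla was not tested.

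Of the carboxylesterase family, 33 other genes were listed and 29 tested, and 3 of them, or 10.3%, were called, 1 higher and 2 lower in tau, against 5.23% of all tested genes. Their median log2 difference was -0.05, against 0.01 over all tested genes. With every library rescaled to the same total it was 0.05, against 0.11 over all tested genes. Glt, which encodes glutactin of the basement membrane, was lower, with 46401 ± 12962 in tau and 86222 ± 19134 in control and a log2 difference of -0.91 (SE 0.20, limma adjusted p 0.0137). Gli, which encodes gliotactin of the septate junctions, was higher, with 1952 ± 142 in tau and 1487 ± 174 in control and a difference of 0.40 (SE 0.09, adjusted p 0.0150). The esterase gene alpha-Est9 was lower without overlap of libraries, with 1420 ± 127 in tau and 1815 ± 108 in control and a difference of -0.36 (SE 0.08, adjusted p 0.0175). Glt and Gli are relatives without esterase activity. None of the 3 was called without tau B, control E and control F (adjusted p 0.104 for Glt, 0.0909 for Gli and 0.0502 for alpha-Est9). With the yolk protein covariate Glt and alpha-Est9 were not called either (adjusted p 0.117 and 0.143), and alpha-Est9 was not called after rescaling to the same total (0.125) or to the same median (0.0534).

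For net, 34 genes of wing vein patterning were tested, which act in the signalling of Egfr, Notch and Dpp or as vein transcription factors. One of them, or 2.94%, was called, against 5.23% of all tested genes, and their median log2 difference was 0.08, with 23 above 0. The called gene was rho, which net represses in the wing. It had 2407 to 2761 in tau libraries and 1718 to 2340 in control libraries, so the groups did not overlap. The mean was 2599 ± 143 in tau and 2059 ± 221 in control, a log2 difference of 0.34 (SE 0.08, limma adjusted p 0.0259). Both net and rho were therefore higher in tau heads. The call of rho was lost when tau A, C or F, or control A or F, was left out (adjusted p 0.0510 to 0.0681). It was also lost with the yolk protein covariate (0.269), without tau B, control E and control F (0.0761), and with the replicate block (0.0597). Egfr, the receptor of the pathway, had a difference of -0.41 (adjusted p 0.177) and dpp, a ligand of the BMP class, of 0.29 (adjusted p 0.0582), and neither was called with all libraries. Egfr was called without control B and dpp without control E.

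**Figure D4:**
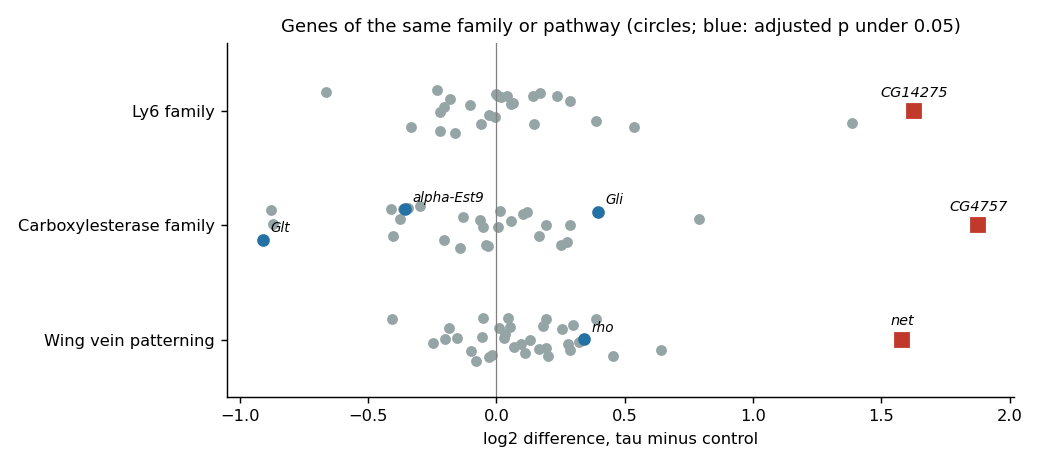
log2 difference, tau minus control (horizontal axis), of genes listed with the same family or pathway as CG14275 (Ly6), CG4757 (carboxylesterases) and net (wing vein patterning). Squares are CG14275 (1.63), CG4757 (1.88) and net (1.58), circles are the other tested genes of each list, and blue circles were called at an adjusted p under 0.05. The circles spread around 0, with medians of 0.0035, -0.05 and 0.08.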

How the data were processed

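The deposited values are a normalised signal per gene and library, made by the authors from gene counts with DESeq2 1.24. The submitters' processing notes name Trimmomatic 0.36 for trimming, FastQC, Salmon 0.13.1 for quantification and the build dm6. Each library joins 2 lanes, per the file headers. Which transcript models were used is not stated in these sources.

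Low values lay within 0.1 of a whole multiple of the value of 1 read pair in 48.0 to 70.2% of cases in tau and 38.2 to 71.3% in control libraries, so whole reads could not be restored and count models were not applied. Dividing totals by that step gave 25.6 to 41.4 M read pairs in tau and 19.6 to 33.2 M in control libraries. Intervals from this depth cover counting error only.

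Genes with a mean of at least 10 over 12 libraries were compared as log2(value + 1), which understates the fold change of low genes, with limma 3.58.1 in R 4.3.3 (variance trend, no covariate, two-sided, Benjamini-Hochberg adjustment over all tested genes). The procedure was tested on simulated data with independent values per gene and the same spread in both genotypes. These held no outlying libraries, so the test does not cover such libraries in the real data. SE is limma's moderated standard error. Correlations used Python 3.11.15 and scipy 1.17.1. Symbols came from a gene name table, with 82 identifiers unnamed, and positions from the Ensembl annotation of BDGP6.

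The members and lists were chosen with earlier results of these data known, and the carboxylesterase list was written after the table had been opened. Named were the 5 genes, every neighbour, every called gene of a list or else the 2 with the smallest p, and for each gene the 3 most like it. Other genes named (qvr, Egfr, dpp, eater, Hml and the called genes among 5 neighbours a side) were chosen after their values were seen. Relatives by protein sequence were not analysed here.

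Alternatives changed the pseudocount, filter, scaling and variance model, added array weights, a replicate block or a yolk protein covariate, or left out libraries. Deviations from the genotype mean of libraries with the same letter correlated at -0.23 to 0.14, over 0.1 in 1 of 6 letters, so the letters were not taken to pair libraries. The submitters describe the pools as independent.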

Additional observations from a re-analysis of the deposited data

Results flagged for a closer look

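In groups of 6 libraries, the highest and lowest were compared with the nearest other library. Of 24 groups looked at 2 had a library far from the rest, and chance flags about 1 in 20. AdipoR in control C was 33646, against 22308 in the next control library. Gli in control C was 1832, against 1453 in the next. Control C is also the library in which short genes lay farthest above and long genes farthest below their mean over all 12 libraries. None of the 5 genes chosen had a library that far from the others.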

How the results depend on the processing

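The log2 differences of the 5 genes stayed above 0 and within 1 SD of the reported value in 114 of 114 alternatives. The choice of the genes largely fixes that sign, so it is no support for the difference. CG33093 has no value at a mean of at least 100. The 567 calls became 369 without a variance trend, 876 with array weights, 146 with the yolk protein covariate, 281 without tau B, control E and control F (255 shared with the 567) and 375 (without control A) to 677 when single libraries were left out. Rescaled to the same total, 525 genes were called higher and 261 lower. With the replicate block 699 genes were called, 232 higher and 467 lower. Ly6 calls became 2 with array weights and 0 to 2 without single libraries. Wing vein calls became 2 at a mean of at least 100, the same total or array weights, 0 with the block, the yolk covariate or without tau B, control E and control F, and 0 to 2 without single libraries. Neighbour calls became 0 (pseudocount 0.5, no filter, no trend, yolk covariate, without those 3 libraries), 2 (mean of at least 100, same total, median centring, block), 5 (array weights), 4 (5 genes a side) and 0 to 2 without single libraries. Carboxylesterase calls became 5 (array weights), 4 (mean of at least 100), 2 (same total, median centring) and 1 (yolk covariate). They became 0 without those 3 libraries and 3 to 4 without single libraries. Pairs that co-vary stayed at 0 of 20 in each setting, and a block could not be fitted within 1 genotype. Exact tests on so few libraries can hardly pass the adjustment over 20 relations, so that count does not show stability. The comparison of relatives by protein sequence was not run. The cause of these shifts was not tested. Depth limits CG33093 most.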
